A study of Homo sapiens with 39 samples.

Results

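The genes described here are 36 genes of cholesterol and fatty acid synthesis, sterol sensing, uptake control and efflux, taken by their symbols. Of these, 35 were matched to an identifier among the 57773 Ensembl genes of the count table, and all 35 had enough reads to be among the 14460 genes tested; ACACA was not analysed here. The cells were JJN3, an established human multiple myeloma line, which is a cancer of antibody-secreting plasma cells. All 39 libraries came from this line grown in RPMI with FCS and fall into 13 groups of 3: cells taken at time 0 (T0), and cells incubated for 1, 3, 6 or 24 h with DMSO (the solvent control), GSK-J4 or ZnSO4. GSK-J4 is a cell-permeable inhibitor of the KDM6 histone demethylases, and ZnSO4 supplies zinc ions; the question set by the study's title is the metal and stress response that GSK-J4 evokes. The labels give no dose, describe 1 line, and do not say whether the 3 libraries of a group came from separate cultures, so p-values reflect library-to-library spread only, and this spread may be technical. T0 carries no solvent, so DMSO and time in culture cannot be told apart in comparisons with T0.

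Cholesterol is built from acetyl-CoA through the mevalonate branch, which yields the isoprenoids farnesyl and geranylgeranyl diphosphate, and then through the sterol branch, which begins with squalene. Fatty acids are built from the same acetyl-CoA by ACLY, acetyl-CoA carboxylase and FASN, and are then elongated and desaturated. Transcription of both sets is driven by the SREBP factors (genes SREBF1 and SREBF2), which SCAP carries to the Golgi for cleavage when sterols are low and which INSIG1 holds back in the endoplasmic reticulum when sterols are high. The oxysterol-activated LXR receptors act in the other direction on cholesterol, through the exporters ABCA1 and ABCG1 and through MYLIP, a ubiquitin ligase that removes lipoprotein receptors from the cell surface.

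SREBP factors bind sterol regulatory elements beside NF-Y, which binds CCAAT, and Sp1, which binds GGGCGG. RefSeq promoter windows (GRCh38.p14, from 250 bases before a gene's start to 50 after it; 300 bases each) were at hand for 30 of the 35 genes, in 40 windows. CCAAT, read on both strands, stood in 25 of the 40 windows (62.5%), against 34.6% of all 35116 windows. GGGCGG stood in 36 of the 40 (90%), against 45% of all windows. The sterol regulatory core TCACNCCAC stood in 1 window (2.5%), that of SREBF2, against 1.13% of all. TGATGCAA, a C/EBP-ATF element, stood in none of the 40 and in 0.866% of all windows, and the metal response core TGCNCNC in 22 of 40 (55%) and 55.9% of all. A match is a description of letters and not a measured binding site. All windows were counted whether or not their genes were among those tested, so these shares are not matched for expression. No window was at hand for ACAT2, FDFT1, SQLE, FASN and ABCG1. The windows of both SREBP genes, HMGCS1, EBP and ELOVL6 are shown, the first listed for each. They were taken from the genes with the smallest p of their branch in a comparison with DMSO, and from INSIG1, SREBF1, SREBF2, ABCA1 and SQLE. Among these they were picked by a match to TCACNCCAC and then by the smallest p against DMSO. HSD17B7 was also chosen by this rule and is not shown. Capitals mark TCACNCCAC or CCAAT on either strand.
SREBF2, chr22:41832855-41833154, plus strand: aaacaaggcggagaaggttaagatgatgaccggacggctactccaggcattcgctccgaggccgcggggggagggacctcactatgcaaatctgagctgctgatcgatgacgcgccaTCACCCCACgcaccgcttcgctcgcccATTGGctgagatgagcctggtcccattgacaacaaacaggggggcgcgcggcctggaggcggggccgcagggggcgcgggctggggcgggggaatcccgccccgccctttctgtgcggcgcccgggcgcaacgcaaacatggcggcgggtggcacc
SREBF1, chr17:17836937-17837236, minus strand: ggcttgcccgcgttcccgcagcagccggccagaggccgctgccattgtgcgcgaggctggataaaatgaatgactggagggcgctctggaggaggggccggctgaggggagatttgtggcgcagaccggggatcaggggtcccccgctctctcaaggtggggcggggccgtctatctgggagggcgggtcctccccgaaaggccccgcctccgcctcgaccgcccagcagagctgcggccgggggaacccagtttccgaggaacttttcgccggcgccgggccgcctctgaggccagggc
HMGCS1, chr5:43313363-43313662, minus strand: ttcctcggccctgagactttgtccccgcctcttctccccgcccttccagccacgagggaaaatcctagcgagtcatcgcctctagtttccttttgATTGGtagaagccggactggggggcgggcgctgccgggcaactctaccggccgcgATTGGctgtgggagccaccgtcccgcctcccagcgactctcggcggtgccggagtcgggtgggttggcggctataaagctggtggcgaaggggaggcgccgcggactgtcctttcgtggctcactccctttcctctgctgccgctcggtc
EBP, chrX:48521558-48521857, plus strand: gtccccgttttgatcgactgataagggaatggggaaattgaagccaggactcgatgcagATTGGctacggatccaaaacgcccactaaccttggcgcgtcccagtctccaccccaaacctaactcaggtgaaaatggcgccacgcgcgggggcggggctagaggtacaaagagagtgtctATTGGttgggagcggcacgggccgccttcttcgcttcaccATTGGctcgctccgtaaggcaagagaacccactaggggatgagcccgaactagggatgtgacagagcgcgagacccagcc
ELOVL6, chr4:110198566-110198865, minus strand: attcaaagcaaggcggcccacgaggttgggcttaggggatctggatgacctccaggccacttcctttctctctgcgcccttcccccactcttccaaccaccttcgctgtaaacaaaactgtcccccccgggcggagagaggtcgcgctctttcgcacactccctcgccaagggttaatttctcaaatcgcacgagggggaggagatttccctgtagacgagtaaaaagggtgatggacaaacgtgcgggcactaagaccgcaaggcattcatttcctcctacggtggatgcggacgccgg
In the SREBF2 window the sterol regulatory core lies upstream of, and apart from, a single inverted CCAAT. The HMGCS1 window shown holds a pair of inverted CCAAT boxes, while the other HMGCS1 window listed holds 0; the EBP window holds 3. The SREBF1 and ELOVL6 windows hold neither motif, and have GGGCGG 3 times and 1 time.

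All levels are given as CPM, which here means counts per 1e6 counts of a library after scaling by trimmed-mean (TMM) factors; divided by exon length it allows genes to be compared with each other, and undivided it allows only groups to be compared. Per kilobase at T0 the highest levels were those of INSIG1 (104 CPM per kb), the membrane protein that retains the SREBP-SCAP complex, and FDPS (99.4), which makes farnesyl diphosphate. The lowest were ACSS2 (0.796), a cytosolic acetyl-CoA synthetase, ABCG1 (1.01) and ABCA1 (1.19). In bulk RNA, fewer cells using a gene and less RNA per cell cannot be told apart.

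In the mevalonate branch the level of each gene is given as the lowest and highest of the 13 group means. ACAT2, which condenses acetyl-CoA, ranged from 96.8 to 134 CPM. HMGCS1, the HMG-CoA synthase, ranged from 123 to 219 CPM. The mevalonate kinases MVK and PMVK ranged from 10.1 to 16.6 and from 72.2 to 98.4 CPM, and the decarboxylase MVD from 18 to 27.7 CPM. The isomerase IDI1 ranged from 59.0 to 127 CPM and FDPS from 128 to 171 CPM. GGPS1, which makes geranylgeranyl diphosphate for protein prenylation, had the highest ratio of highest to lowest group mean in the branch (3.97), from 6.67 to 26.5 CPM.

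Sterol branch enzymes ranged over 1.22 to 2.56 times between their lowest and highest group means. Squalene synthase FDFT1 lay between 94.3 and 134 CPM, squalene epoxidase SQLE between 140 and 241 CPM, and lanosterol synthase LSS between 63.0 and 77.7 CPM. The demethylation steps were carried by CYP51A1 (5.76 to 11 CPM), MSMO1 (29.7 to 72.0 CPM), NSDHL (15 to 23.7 CPM) and HSD17B7 (9.6 to 24.6 CPM). TM7SF2, a sterol reductase, lay between 5.27 and 7.34 CPM, the isomerase EBP between 49.8 and 84.5 CPM, SC5D between 27.8 and 33.8 CPM, and DHCR7, which performs a late reduction on the way to cholesterol, between 61.3 and 78.8 CPM. Reads of CYP51A1 (2058 over all libraries) are uncertain, because its pseudogenes CYP51A1P1 and CYP51A1P2 drew 333 and 723 reads of their own; HSD17B7P2 drew 554 beside 4418 for HSD17B7.

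Among the control genes, SREBF1 ranged from 39.2 to 66.3 CPM, SREBF2 from 212 to 413 CPM, SCAP from 68.6 to 90.4 CPM, INSIG1 from 229 to 361 CPM, and STARD4, a carrier that moves cholesterol between membranes, from 21.4 to 46.9 CPM. In the fatty acid branch ACLY ranged from 312 to 379 CPM, ACSS2 from 1.28 to 3.20 CPM, FASN from 301 to 659 CPM, the elongase ELOVL6 from 54.5 to 115 CPM, the stearoyl desaturase SCD from 108 to 200 CPM, and the front-end desaturases FADS1 and FADS2 from 77.0 to 96.4 and from 35.5 to 62.0 CPM. The LXR gene NR1H2 had the narrowest range of all 35 genes as the ratio of highest to lowest group mean (1.17), from 75.6 to 88.5 CPM. By that ratio MYLIP had the widest (13.2), from 15.5 to 205 CPM, followed by ABCA1 (7.74), from 12 to 92.9 CPM, and ABCG1 ranged from 3.98 to 9.05 CPM.

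Library totals lay between 4347745 and 10695671 counts (median 6010529). Of 11 plasma cell markers, 10 were above 20 CPM in every library, while CD79A was at 0.441 to 2.69 CPM. Of 15 markers of other cell types, 11 stayed under 3 CPM in every library; EPCAM reached 62.6, COL1A1 32.7, COL1A2 33.2 and MS4A1 6.01 CPM. The summed level of these 15 markers was 75 to 121 CPM in the 24 h libraries and 51.9 to 66.0 CPM at T0. At 3 h it was 54.8 to 107 CPM with DMSO, 49.5 to 61.5 with ZnSO4 and 51.5 to 63.0 with GSK-J4, and at 1 and 6 h every library was at 77.0 CPM or less. The mitochondrial share of counts was 4.38 to 5.54% at 24 h and 2.92 to 3.90% before. The part of these shifts in the results at 3 and 24 h was not tested.

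**Figure D1:**
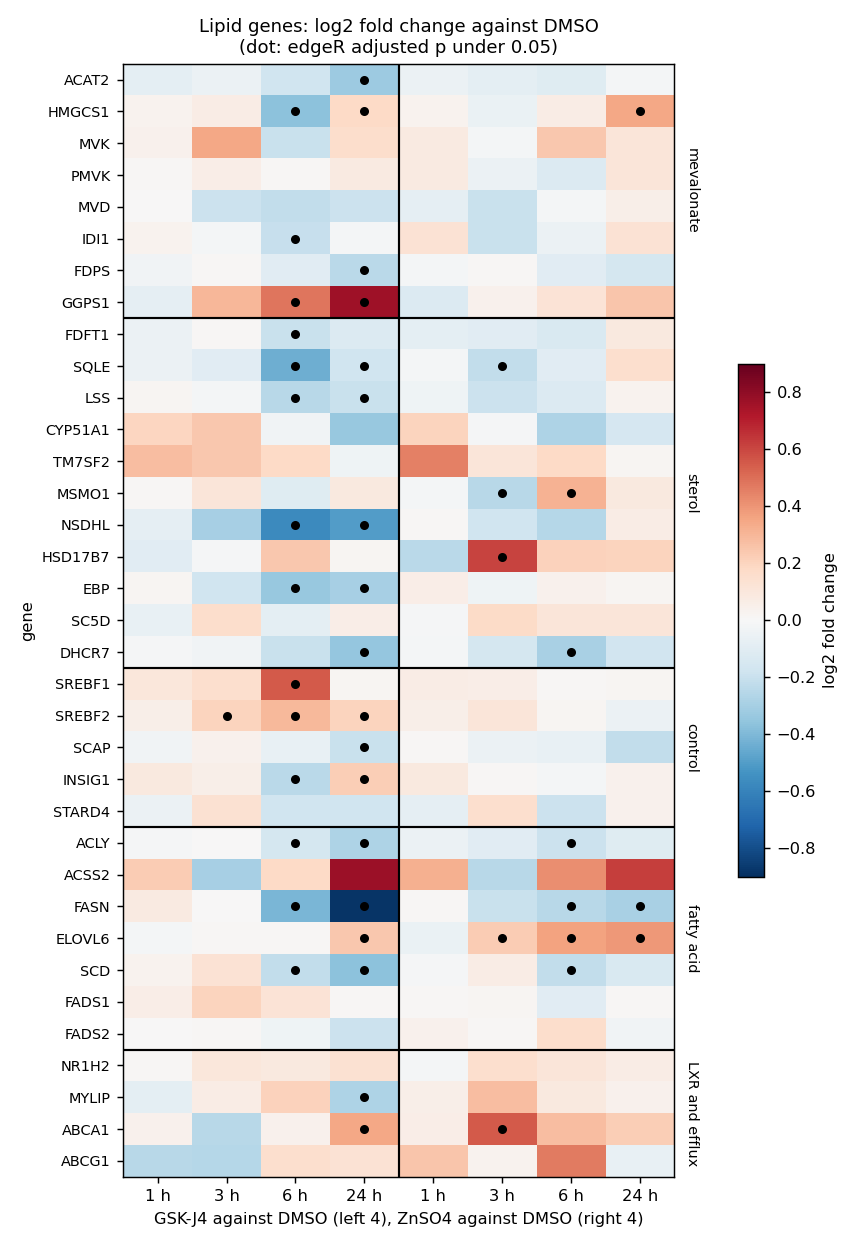
Log2 fold change of each of the 35 lipid genes (rows, by branch) against DMSO of the same time, for GSK-J4 (left 4 columns) and ZnSO4 (right 4 columns); a dot marks an edgeR adjusted p under 0.05. No dot stands at 1 h, GSK-J4 has 14 at 6 h and 18 at 24 h, and ZnSO4 has at most 6 at any time.

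At 1 h no lipid gene differed from DMSO with either compound. With GSK-J4, 0 of 35 passed the adjusted threshold, 0 had an unadjusted p under 0.05 (575 of all 14460 genes), and DESeq2 also called 0. Of all genes tested, 0.104% were called. With ZnSO4, 0 of 35 passed, 1 (TM7SF2) had an unadjusted p under 0.05 (931 of all 14460 genes), DESeq2 called 0, and 0.678% of all genes were called. SREBF2 stood at 229, 227 and 207 CPM with DMSO, 238, 228 and 222 with GSK-J4 and 241, 231 and 216 with ZnSO4. SREBF1 stood at 45.7, 44.8 and 43.7 CPM with DMSO, 56.6, 40.5 and 47.3 with GSK-J4 and 50.3, 44.9 and 46.0 with ZnSO4. The groups of both genes overlapped, with 1 GSK-J4 library high for SREBF1. INSIG1 was at 341, 325 and 345 CPM with DMSO, 374, 354 and 346 with GSK-J4 and 359, 341 and 371 with ZnSO4. SQLE was at 255, 233 and 234 CPM with DMSO, 235, 237 and 226 with GSK-J4 and 240, 233 and 239 with ZnSO4. ABCA1 was at 17.2, 18.8 and 24.3 CPM with DMSO, 20, 19.6 and 21.3 with GSK-J4 and 22.7, 18.6 and 20.4 with ZnSO4. INSIG1 was higher in each GSK-J4 library than in each DMSO library, by 0.09 on the log2 scale (95% interval -0.04 to 0.21, adjusted p = 1), and the other groups of INSIG1, SQLE and ABCA1 overlapped. In the other branches the smallest p with GSK-J4 belonged to ACAT2, TM7SF2, FASN and ABCG1; the adjusted p of all 35 genes was 1. ACAT2 was at 136, 129 and 136 CPM with DMSO and 123, 128 and 126 with GSK-J4. FASN was at 442, 440.0 and 406 with DMSO and 475, 443 and 444 with GSK-J4. The groups of neither gene overlapped, but both were picked for the smallest p of their branch. The share of all genes without overlap was not counted, here or below, so a lack of overlap adds nothing to the adjusted p. TM7SF2 was at 6.14, 5.17 and 4.5 CPM with DMSO, 7.01, 6.65 and 5.90 with GSK-J4 and 5.78, 9.05 and 7.19 with ZnSO4. ABCG1 was at 4.54, 4.11 and 5.76 CPM with DMSO, 4.49, 4.33 and 3.11 with GSK-J4 and 4.29, 5.50 and 6.44 with ZnSO4. Both genes had few reads and overlapping groups. With ZnSO4 the smallest p belonged to TM7SF2 and ABCG1 and also to IDI1 (64.5, 74.0 and 71.1 CPM against 68.1, 59.5 and 63.8 with DMSO) and ACSS2 (3.54, 2.31 and 2.71 against 2.21, 2.52 and 1.98), at adjusted p of 0.72 to 0.92.

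With GSK-J4 at 3 h, SREBF2 was the single lipid gene to pass the threshold, against 2.38% of all genes. Of the 35, 7 had an unadjusted p under 0.05, against 1897 of all 14460 genes. SREBF2 stood at 229, 227 and 234 CPM with DMSO and at 269, 269 and 252 with GSK-J4. All GSK-J4 libraries were higher than all DMSO libraries, a rise of 0.20 on the log2 scale (SE 0.06, adjusted p = 0.044). That call was lost without any of the 3 DMSO libraries (adjusted p of 0.096 to 0.18), without GSK-J4 replicate 1 (0.18) or 2 (0.19), and with RLE size factors (0.053). In the other branches the smallest p belonged to MVK, NSDHL, FADS1 and ABCA1, none past the threshold. MVK was at 12.4, 11.9 and 11.9 CPM with DMSO and 16.1, 15 and 15.2 with GSK-J4 (log2 difference 0.35, adjusted p = 0.16), and the groups did not overlap. FADS1 was at 82.9, 86.9 and 82.4 CPM with DMSO and 95.6, 97.8 and 95.7 with GSK-J4 (0.20, adjusted p = 0.079), again without overlap. NSDHL was at 25.2, 26 and 20 CPM with DMSO and 18.1, 18.5 and 21.6 with GSK-J4 (log2 difference -0.30, adjusted p = 0.16), with overlap.

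By 6 h of GSK-J4, lipid synthesis genes had fallen more often than they had risen. Of the 35, 11 fell (31.4%), against 10.5% of all genes tested, and 3 rose (8.57%), against 9.83% of all. The median log2 change was -0.10 for the 35 and 0.01 for all genes. The 35 genes had a higher median average log2 CPM (6.18) than all genes tested (4.58). Shares of all genes, here and in the other comparisons, were not matched for level. The part of level in the counts of calls was not tested. Nor was that of the choice of genes, which was made with earlier results of these data known. By branch, 5 of 11 sterol enzymes fell and 0 rose, 3 of 7 fatty acid genes fell and 0 rose, 2 of 8 mevalonate genes fell and 1 rose, and 1 of 5 control genes fell while 2 rose. None of the 4 LXR and efflux genes passed, and 0 of them had an unadjusted p under 0.05 (4548 of all 14460 genes). Without GSK-J4 replicate 3, 6 genes fell in place of 11, and without DMSO replicate 3, 7 fell.

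Squalene epoxidase SQLE, an oxygen-requiring and rate-setting enzyme of the sterol branch, had the smallest p of the 35 genes at 6 h. It stood at 207, 208 and 237 CPM with DMSO and at 161, 161 and 158 with GSK-J4. All 3 GSK-J4 libraries lay below all DMSO libraries, and SQLE fell by 0.44 on the log2 scale (SE 0.06, adjusted p = 3.2e-08). NSDHL, a sterol C-demethylation enzyme, had the largest fall in size, from 24.4, 21.3 and 24.2 CPM to 18.3, 15 and 13.1, a change of -0.57 (SE 0.12, adjusted p = 3.0e-04). EBP fell by 0.34 (from a mean of 63.5 to 49.8 CPM). LSS fell by 0.25 and FDFT1 by 0.20 on the log2 scale. The LSS call was lost without DMSO replicate 1 (adjusted p = 0.056) or GSK-J4 replicate 3 (0.054). FDFT1 missed the threshold without DMSO replicate 2 (0.059) or 3 (0.11), without GSK-J4 replicate 2 (0.084) or 3 (log2 change -0.12, adjusted p = 0.29), by library totals (0.11) and with no filter on low counts (0.077).

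Upstream, HMGCS1 fell and GGPS1 rose. HMGCS1 stood at 146, 160 and 175 CPM with DMSO and at 133, 122 and 114 with GSK-J4, lower in every GSK-J4 library, a change of -0.37 (SE 0.07, adjusted p = 1.1e-05). IDI1 fell by 0.21, a call lost without DMSO replicate 2 (adjusted p = 0.16), without GSK-J4 replicate 2 (0.087) or 3 (0.16), by library totals (0.087) and with no filter (0.11). GGPS1 rose by 0.48 (SE 0.12, adjusted p = 0.0016), from 19.4, 20.5 and 17.6 CPM to 27.2, 27.7 and 24.6. GGPS1 shares 11.27% of its exon length with TBCE on the same strand and 4.44% with ARID4B on the other, so part of its reads are uncertain.

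The 2 SREBP genes rose at 6 h. SREBF1 stood at 41.3, 38.2 and 42.4 CPM with DMSO and at 61.2, 58.7 and 58.9 with GSK-J4, well apart, a rise of 0.55 (SE 0.09, adjusted p = 7.7e-07). SREBF2 stood at 232, 240 and 223 CPM with DMSO and at 303, 272 and 275 with GSK-J4, a rise of 0.29 (SE 0.06, adjusted p = 8.2e-05). INSIG1, itself a classic SREBP target, stood at 302, 314 and 352 CPM with DMSO and at 300.0, 266 and 249 with GSK-J4. The highest GSK-J4 library lay just under the lowest DMSO library, and INSIG1 fell by 0.24 (SE 0.06, adjusted p = 0.0038). Its call was lost without DMSO replicate 3 (log2 change -0.18, adjusted p = 0.071) or GSK-J4 replicate 3 (0.06). SCAP and STARD4 did not pass (log2 differences -0.07 and -0.18).

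The fatty acid synthase FASN stood at 396, 379 and 429 CPM with DMSO at 6 h and at 292, 304 and 308 with GSK-J4. It was lower in every GSK-J4 library and fell by 0.41 (SE 0.08, adjusted p = 1.9e-05). SCD fell by 0.22, a call lost without DMSO replicate 3 (adjusted p = 0.093). ACLY, which splits citrate to supply acetyl-CoA, fell by 0.16, a call lost without DMSO replicate 3 (0.087), without GSK-J4 replicate 2 (0.075) or 3 (0.061), by library totals (0.096) and with no filter (0.056). ABCA1 stood at 10.0, 10.5 and 22.2 CPM with DMSO and at 17, 11.9 and 14.4 with GSK-J4; DMSO replicate 3 stood above every other library of both groups, and no difference was detectable (log2 difference 0.04, 95% interval -0.31 to 0.38). MYLIP had the smallest p of its branch, at 17.3, 18.8 and 16.6 CPM with DMSO and 19.7, 20 and 21.4 with GSK-J4 (0.21, adjusted p = 0.24).

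**Figure D2:**
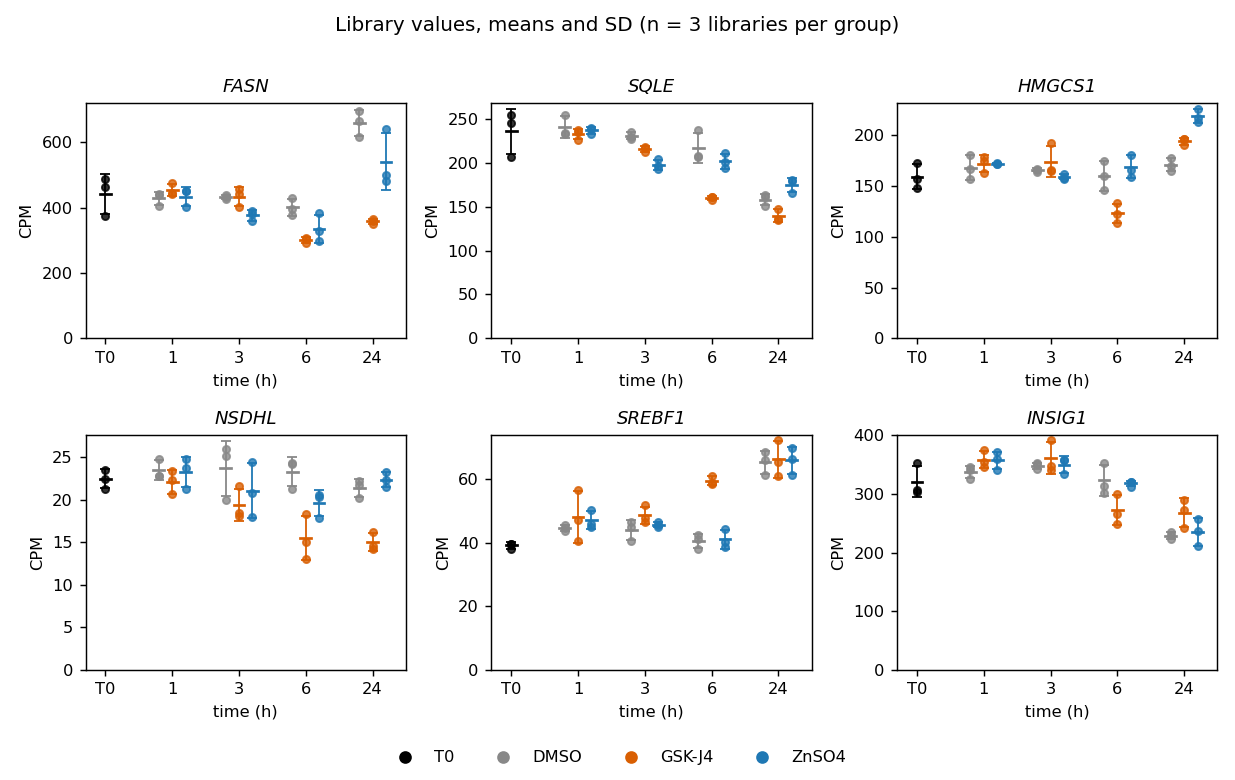
Level (CPM, linear axes from 0) of 6 lipid genes in every library against time, for T0, DMSO, GSK-J4 and ZnSO4; points are libraries, short lines are means and bars are SD (n = 3). FASN at 24 h with GSK-J4 (349 to 365 CPM) lies under every DMSO library (616 to 696 CPM), and SREBF1 with GSK-J4 is apart from DMSO at 6 h but not at 24 h.

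At 24 h of GSK-J4, FASN showed the largest fall and the smallest p of all 35 genes. It stood at 696, 616 and 665 CPM with DMSO and at 349, 359 and 365 with GSK-J4, a fall to 0.54 times the DMSO level (log2 change -0.88, SE 0.07, adjusted p = 2.4e-15). FASN with GSK-J4 was also under the T0 libraries (373, 463 and 488 CPM), while with DMSO it was above them. Of the 35 genes, 12 fell (34.3%), against 16.8% of all genes, and 6 rose (17.1%), against 15.2%. The median change was -0.04 for the 35 and 0.02 for all genes. Scaling by library totals alone moved the median of all genes to 0.11 and gave 9 falls and 7 rises. Of all genes, 1526 fell and 3256 rose by that scaling, against 2424 and 2205 with TMM factors. With no filter on low counts there were 12 falls and 3 rises among the 35. Sterol enzymes again fell in 5 of 11 cases with 0 rising, and fatty acid genes fell in 3 of 7 with 1 rising.

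Other fatty acid genes at 24 h went separate ways. SCD fell by 0.37 (adjusted p = 8.4e-06), from 141, 141 and 138 CPM to 111, 104 and 109. ACLY fell by 0.28 (adjusted p = 2.5e-05), from 387, 384 and 368 CPM to 315, 306 and 316. ELOVL6, which lengthens C16 chains, rose by 0.24, from 55.4, 55.4 and 52.7 CPM to 63.5, 62.3 and 68.0; this call was lost without DMSO replicate 3 (adjusted p = 0.063) or GSK-J4 replicate 3 (0.097) and with no filter (0.17). ACSS2, with 614 reads in all libraries together, differed by 0.77 without passing (adjusted p = 0.11).

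In the sterol branch at 24 h the falls were in NSDHL (change -0.50), DHCR7 (-0.35), EBP (-0.30), LSS (-0.20) and SQLE (-0.18). EBP had the smallest p of the branch, at 82.4, 80.1 and 87.9 CPM with DMSO and 66.3, 71.9 and 64.6 with GSK-J4 (SE 0.07, adjusted p = 2.9e-04), and the groups did not overlap. SQLE stood at 151, 163 and 161 CPM with DMSO and at 148, 135 and 136 with GSK-J4. Its call was lost without DMSO replicate 2 (adjusted p = 0.06), without GSK-J4 replicate 2 (0.077) or 3 (0.07) and by library totals (0.26). LSS, whose libraries overlapped between the groups, lost its call without DMSO replicate 1 (0.052) or 3 (0.16), without GSK-J4 replicate 2 (0.16) or 3 (0.11) and by library totals (0.27).

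Mevalonate genes were divided at 24 h: ACAT2 and FDPS fell and HMGCS1 and GGPS1 rose. ACAT2 stood at 121, 120 and 125 CPM with DMSO and at 102, 103 and 85.5 with GSK-J4, a change of -0.33 (SE 0.07, adjusted p = 1.6e-04). ACAT2 shares 12.48% of its exon length with TCP1, 34.78% with SOD2 and 45.85% with SOD2-OT1, all on the opposite strand, and whether the counting used strand is not given in the sources used here. FDPS fell by 0.24 (0.15 by library totals, adjusted p = 0.032); 28.9% of its exon length is shared with RUSC1-AS1. GGPS1 stood at 7.20, 7.49 and 5.32 CPM with DMSO and at 13.3, 8.53 and 12.4 with GSK-J4, higher in every library, a rise of 0.76 over DMSO (SE 0.16, adjusted p = 1.6e-04). Both groups lay under every T0 library of GGPS1. HMGCS1 rose by 0.18, from 170, 178 and 165 CPM to 190, 196 and 196. The HMGCS1 call was lost without DMSO replicate 1 (adjusted p = 0.074) or 3 (0.11), without GSK-J4 replicate 2 (0.066) or 3 (0.073) and with no filter (0.29); by library totals the rise was 0.27.

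SREBF2 was still higher at 24 h, at 360, 363 and 355 CPM with DMSO and 431, 409 and 400.0 with GSK-J4 (0.20, SE 0.05, adjusted p = 0.0029; 0.095 with no filter). SREBF1 was not: it stood at 66.1, 61.5 and 68.7 CPM with DMSO and at 72.4, 65.5 and 61.1 with GSK-J4, a difference of 0.02 (95% interval -0.14 to 0.18). INSIG1 was now higher with GSK-J4 than with DMSO, by 0.22 (SE 0.07, adjusted p = 0.0062). It stood at 223, 235 and 230 CPM with DMSO and at 290, 273 and 241 with GSK-J4, a call lost without GSK-J4 replicate 1 (0.096). At the previous time INSIG1 had stood at 300, 266 and 249 CPM with GSK-J4, overlapping the GSK-J4 libraries at 24 h. With DMSO it had then stood at 302, 314 and 352 CPM, above every DMSO library at 24 h. SCAP fell by 0.20, a call lost without DMSO replicate 1 (0.13), without GSK-J4 replicate 1 (0.15) or 2 (0.066) and by library totals (0.29).

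The LXR-linked genes moved apart at 24 h. MYLIP stood at 201, 199 and 198 CPM with DMSO and at 161, 170 and 162 with GSK-J4, and fell by 0.28 (SE 0.07, adjusted p = 6.6e-04), and by 0.18 by library totals (adjusted p = 0.027). ABCA1 stood at 72.2, 69.1 and 77.9 CPM with DMSO and at 98.9, 85.7 and 94.1 with GSK-J4, and rose by 0.35 (SE 0.10, adjusted p = 0.0049; DESeq2 0.073). Neither pair of groups overlapped. NR1H2 and ABCG1 did not pass.

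**Figure D3:**
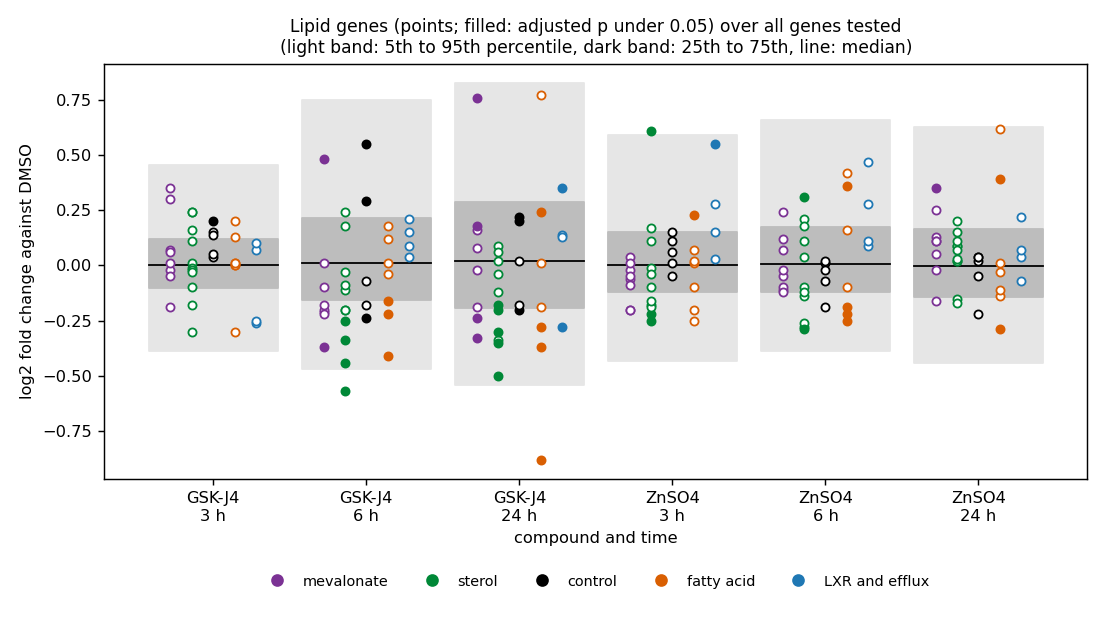
Log2 fold change against DMSO of the 35 lipid genes (points, coloured by branch; filled where the adjusted p is under 0.05) over all 14460 genes tested (light band from the 5th to the 95th percentile, dark band from the 25th to the 75th, line at the median). FASN at 24 h of GSK-J4 (-0.88) lies outside the light band, and sterol branch points sit mostly below the median at 6 and 24 h of GSK-J4.

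With ZnSO4 at 3 h, a sterol enzyme, an exporter and an elongase rose. Of the 35 genes, 3 rose, against 6.59% of all genes, and 2 fell, against 4.16%. The split was 3 and 4 with RLE size factors and 2 and 5 by library totals. For all genes it was 882 and 671 with RLE size factors and 758 and 947 by library totals. Of the 5 calls with TMM factors, 2 were left in number without DMSO replicate 1, and 3 without DMSO replicate 2 or ZnSO4 replicate 2 or 3. In the same comparison 2 of the 6 other-cell markers tested, COL1A1 (change -1.23, adjusted p = 0.023) and COL1A2 (-1.46, adjusted p = 0.015), were lower with ZnSO4; their part in these results was not tested. HSD17B7, a ketosteroid reductase of sterol demethylation, stood at 17.5, 14.3 and 16.8 CPM with DMSO and at 22.8, 25.6 and 25.6 with ZnSO4. All ZnSO4 libraries were higher, a rise of 0.61 (SE 0.12, adjusted p = 1.6e-04). ABCA1 stood at 12.4, 17.6 and 12.3 CPM with DMSO and at 20.1, 23.1 and 18.9 with ZnSO4, a rise of 0.55 (SE 0.16, adjusted p = 0.013). Its call was lost without DMSO replicate 1 (adjusted p = 0.14) or 3 (0.078) or ZnSO4 replicate 2 (0.12). ELOVL6 rose by 0.23, from 82.9, 82.1 and 88.0 CPM to 98.8, 97.3 and 100, a call lost without DMSO replicate 1 (0.089) or 2 (0.1), without ZnSO4 replicate 3 (0.098) and by library totals (0.068).

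SQLE and MSMO1 were the genes that fell at 3 h of ZnSO4. SQLE stood at 235, 230.0 and 227 CPM with DMSO and at 196, 204 and 193 with ZnSO4, without overlap, and fell by 0.22 (SE 0.06, adjusted p = 0.0051). MSMO1, the sterol C4 methyl oxidase, fell by 0.25, from 60.8, 62.0 and 56.1 CPM to 51.0, 50.3 and 49.5. The MSMO1 call was lost without DMSO replicate 1 (adjusted p = 0.1) or 2 (0.13), without ZnSO4 replicate 2 (0.066) or 3 (0.073) and with no filter (0.18). No mevalonate or control gene passed; the smallest p values were those of IDI1 (59.7, 61.3 and 56.0 CPM with ZnSO4 against 65.0, 67.4 and 72.1 with DMSO, log2 difference -0.20, adjusted p = 0.058) and SREBF2 (253, 244 and 246 CPM with ZnSO4, above every DMSO library; difference 0.11, adjusted p = 0.29). INSIG1 was at 334, 358 and 358 CPM with ZnSO4 and 351, 352 and 343 with DMSO, and SREBF1 at 45.5, 46.5 and 44.9 with ZnSO4 and 45.1, 40.6 and 46.5 with DMSO; both pairs overlapped. With GSK-J4 at that time INSIG1 was at 392, 341 and 348 CPM, SREBF1 at 51.8, 47.7 and 46.7, SQLE at 217, 212 and 218, and ABCA1 at 12.7, 11.5 and 11.7.

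At 6 h of ZnSO4, MSMO1 and ELOVL6 rose and 4 genes fell (4.81% and 4.51% of all genes). ELOVL6 stood at 87.9, 80.7 and 99.5 CPM with DMSO and at 108, 115 and 122 with ZnSO4, above every DMSO library, a rise of 0.36 (SE 0.07, adjusted p = 1.9e-04). MSMO1 stood at 59.2, 60.6 and 54.3 CPM with DMSO and at 71.2, 74.5 and 70.3 with ZnSO4, a rise of 0.31 (SE 0.08, adjusted p = 0.0042; 0.055 with no filter). Without DMSO replicate 3 the MSMO1 call was narrowly lost (adjusted p = 0.052). The falls were in DHCR7 (change -0.29), FASN (-0.25), SCD (-0.22) and ACLY (-0.19), and each was lost without some library. FASN, with overlapping libraries of 383, 298 and 327 CPM against 396, 379 and 429 with DMSO, lost its call without DMSO replicate 3 (0.13) or ZnSO4 replicate 2 (0.18) or 3 (0.093). DHCR7 lost it without DMSO replicate 1 (0.078) or ZnSO4 replicate 2 (0.066) or 3 (0.077). SCD lost it without DMSO replicate 2 (0.051) or 3 (0.15), without ZnSO4 replicate 2 (0.13) and when only the groups compared were fitted (0.051). ACLY lost it without DMSO replicate 3 (0.078) or ZnSO4 replicate 2 (0.069) or 3 (0.066). Without ZnSO4 replicate 2 the count of falls was thus 0 in place of 4, and without DMSO replicate 3 or ZnSO4 replicate 3 it was 1.

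No mevalonate, control or LXR-linked gene passed at 6 h of ZnSO4. The smallest p values there were those of MVK (18.2, 17.3 and 14.3 CPM against 14.8, 12.9 and 13.9 with DMSO), STARD4 (25.4, 21.5 and 22.6 against 24.3, 25.3 and 29.9) and ABCG1 (6.87, 6.19 and 5.90 against 4.41, 4.65 and 4.59), at adjusted p of 0.23 to 0.31. The ABCG1 groups did not overlap, but its 1479 reads in all 39 libraries give a wide interval (log2 difference 0.47, SE 0.24). SQLE stood at 211, 201 and 194 CPM, SREBF1 at 44.4, 40.3 and 38.7, SREBF2 at 251, 222 and 230.0, INSIG1 at 320.0, 321 and 312, and ABCA1 at 17.8, 17 and 17 with ZnSO4. Each of these 5 overlapped its DMSO libraries at 6 h.

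At 24 h of ZnSO4, HMGCS1 and ELOVL6 rose (2 of 35, against 3.98% of all genes) and FASN fell (1 of 35, against 5.58%). HMGCS1 stood at 170, 178 and 165 CPM with DMSO and at 217, 226 and 213 with ZnSO4, the highest group of the 13, a rise of 0.35 (SE 0.06, adjusted p = 5.2e-05). ELOVL6 stood at 66.3, 72.7 and 75.3 CPM with ZnSO4, above its 3 DMSO libraries, a rise of 0.39 (SE 0.08, adjusted p = 4.9e-04). FASN stood at 641, 501 and 481 CPM with ZnSO4; the highest lay among the DMSO libraries and the others under them, a change of -0.29 (SE 0.07, adjusted p = 0.0052). The FASN call was lost without ZnSO4 replicate 2 (adjusted p = 0.077) or 3 (0.099). Not passing, but with the smallest p of their branches, were SQLE (179, 181 and 166 CPM, difference 0.15, adjusted p = 0.13), SCAP (65.3, 71.7 and 68.7 against 84.9, 78.2 and 76.2 with DMSO, -0.22, adjusted p = 0.076) and ABCA1 (89.6, 83.2 and 82.2 CPM, 0.22, adjusted p = 0.20). With ZnSO4 at 24 h SREBF2 was at 354, 360.0 and 326 CPM, SREBF1 at 66.5, 70.0 and 61.4 and INSIG1 at 211, 258 and 237, all overlapping DMSO.

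**Figure D4:**
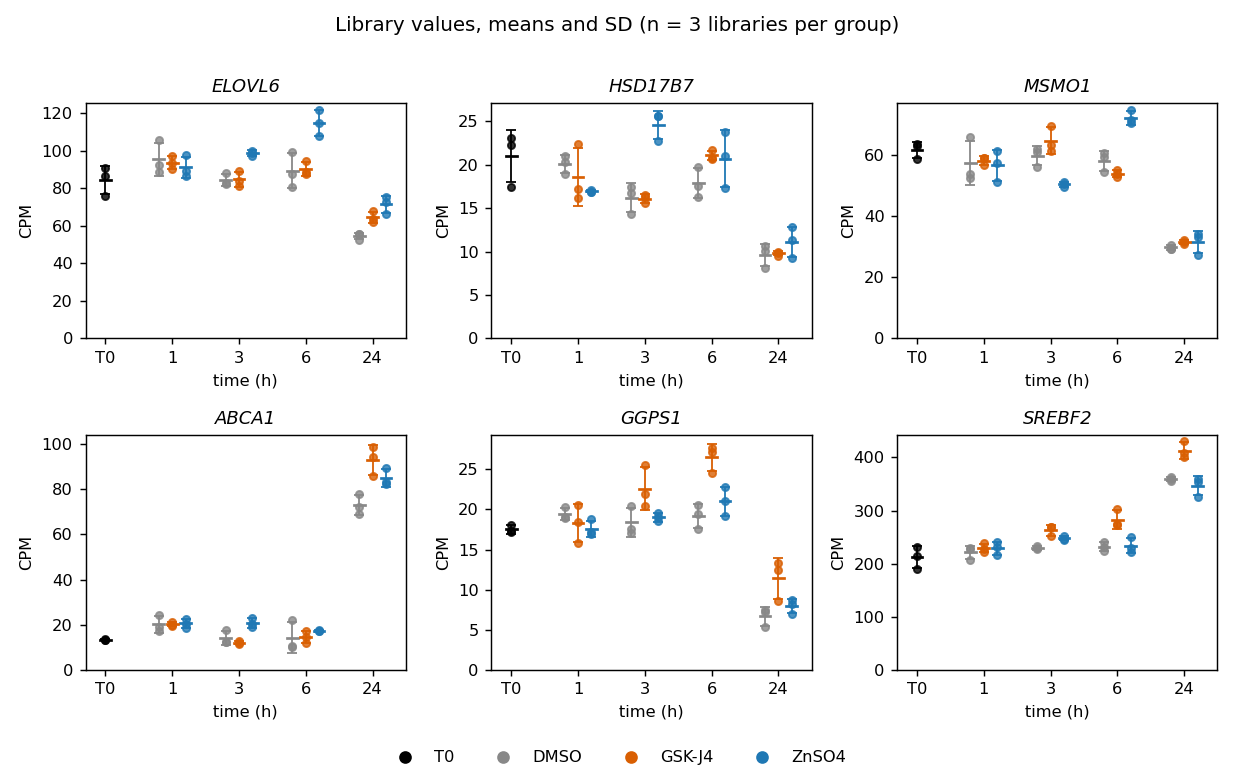
Level (CPM, linear axes from 0) of 6 lipid genes in every library against time, for T0, DMSO, GSK-J4 and ZnSO4; points are libraries, short lines are means and bars are SD (n = 3). ELOVL6 with ZnSO4 lies above DMSO at 3, 6 and 24 h, and HSD17B7 is high with ZnSO4 at 3 h. GGPS1 and SREBF2 are higher with GSK-J4 than with DMSO at 6 and 24 h, but GGPS1 at 24 h lies under T0 in both groups.

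The compounds were also set directly against each other; the comparisons of each with DMSO share the DMSO libraries, which this contrast does not use. At 1 h 0 of 35 genes differed, against 0.664% of all genes, and DESeq2 also called 0. At an unadjusted p under 0.05 there was 1, ABCG1, against 1338 of all 14460 genes. At 3 h 3 were higher with GSK-J4 (3.99% of all genes) and 3 lower (6.12%), and by library totals 10 were higher and 2 lower. Of all genes, 1270 were higher and 638 lower by library totals, against 577 and 885 with TMM factors. HSD17B7 was lower with GSK-J4 by 0.62 (16.3, 15.6 and 16.5 CPM against 22.8, 25.6 and 25.6, adjusted p = 3.3e-05), ABCA1 by 0.80 (12.7, 11.5 and 11.7 CPM against 20.1, 23.1 and 18.9, adjusted p = 4.4e-05), and MSMO1 was higher by 0.36 (adjusted p = 2.5e-04). These 3 calls held in every alternative, while those of ELOVL6, MVK and FADS1 did not: without ZnSO4 replicate 3, or GSK-J4 replicate 1 or 2, only the first 3 were left. Without ZnSO4 replicate 2 the count of higher genes was 1.

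At 6 h 7 genes were lower with GSK-J4 than with ZnSO4 (9.88% of all genes) and 4 higher (8.53%); the count of higher genes was 2 without GSK-J4 replicate 1 and with no filter on low counts. SREBF1 was higher by 0.54 (mean 59.6 ± 1.41 against 41.1 ± 2.96 CPM, SD, n = 3, adjusted p = 2.5e-06) and SREBF2 by 0.27 (adjusted p = 2.7e-04). HMGCS1 was lower by 0.45 on the log2 scale (133, 122 and 114 CPM against 181, 166 and 159, adjusted p = 3.4e-07), MSMO1 by 0.42, EBP by 0.38, ELOVL6 by 0.35 and SQLE by 0.34, with adjusted p of at most 1.6e-04. MVK, INSIG1, GGPS1 and FADS1 passed as well, with calls that were each lost in some alternative.

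At 24 h 11 genes were lower with GSK-J4 (12.5% of all genes) and 3 higher (12%). By library totals 6 were lower and 3 higher. Of all genes, 1229 were lower and 2447 higher by library totals, against 1812 and 1734 with TMM factors. FASN was lower by 0.59 (349, 359 and 365 CPM against 641, 501 and 481, adjusted p = 3.8e-09), NSDHL by 0.57, SQLE by 0.33, EBP and ACAT2 by 0.32 each, and MYLIP by 0.31. SREBF2 was higher by 0.25 (adjusted p = 4.1e-04). The other 7 calls, with FDFT1, LSS, SCD, ACLY and HMGCS1 lower and GGPS1 and INSIG1 higher, were each lost in some alternative. Without ZnSO4 replicate 1, or without GSK-J4 replicate 2, the count was 8 in place of 14. The count of higher genes was 1 without replicate 1 of either group and with no filter on low counts.

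The effect of GSK-J4, meaning its difference from DMSO of the same time, changed with time for several lipid genes, by interaction contrasts. Between 3 and 6 h the effect became more negative for 4 genes (1.92% of all genes) and more positive for 1 (1.75%). It moved by -0.45 for HMGCS1 (adjusted p = 9.0e-04), -0.42 for FASN (0.0092), -0.35 for SCD (0.0091) and -0.34 for SQLE (0.0067), and by 0.41 for SREBF1 (0.039). Without DMSO 6 h replicate 3 the SCD and SQLE calls were lost (adjusted p of 0.056 and 0.057). The SREBF1 call was lost with no filter (0.21) and without any of 9 libraries, all those of the 4 groups except DMSO 3 h replicate 2, GSK-J4 3 h replicate 1 and DMSO 6 h replicate 3 (adjusted p of 0.061 to 0.12). Between 6 and 24 h the effect moved up for HMGCS1 by 0.56 (adjusted p = 1.4e-05) and INSIG1 by 0.47 (3.7e-04), 2 genes against 2.72% of all. It moved down for SREBF1 by -0.53 (0.0014), MYLIP by -0.49 (0.022) and FASN by -0.47 (0.0020), 3 genes against 3.04% of all. These contrasts also take in the change of DMSO between 6 and 24 h. For SREBF1, MYLIP and FASN the mean with GSK-J4 was higher at 24 h than at 6 h, and the DMSO mean rose more. For INSIG1 the GSK-J4 libraries of the 2 times overlapped, and every DMSO library was lower at 24 h. For HMGCS1 every GSK-J4 library was higher at 24 h, and the DMSO libraries overlapped. The MYLIP call was lost without DMSO 6 h replicate 1 (0.056) or 3 (0.068) or GSK-J4 6 h replicate 3 (0.068).

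For ZnSO4, the effect moved between 3 and 6 h for 1 gene, MSMO1, by 0.56 (SE 0.11, adjusted p = 6.2e-04), from lower than DMSO to higher, against 2.18% of all genes. Between 6 and 24 h it moved for 0 of 35 genes, against 0.408% of all genes, and DESeq2 also called 0. At an unadjusted p under 0.05 there were 3, against 1295 of all 14460 genes.

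Against T0, no lipid gene passed at 1, 3 or 6 h of DMSO, and 26 of the 35 passed at 24 h. At 1, 3 and 6 h 0 passed (DESeq2 0, 1 and 0), while 0.0346%, 0.0968% and 0.0138% of all genes were called. An unadjusted p under 0.05 was found for 6, 3 and 6 of the 35, and for 1112, 1872 and 1778 of all 14460 genes. Leaving out T0 replicate 1 gave 1, 1 and 3 called lipid genes at these times. Of all genes, 13, 350 and 409 were then higher and 34, 353 and 392 lower. With all libraries 4, 8 and 1 were higher and 1, 6 and 1 lower, so the shares of all genes depended on that T0 library. Leaving out T0 replicate 2 gave 1 lipid gene at 3 h and leaving out DMSO replicate 3 gave 1 at 6 h. At 24 h 11 rose (31.4%), against 30.5% of all genes, and 15 fell (42.9%), against 32.7%. The 11 include ACLY, whose direction turned with the scaling. By library totals alone, which moved the median of all genes from -0.02 to -0.24, 9 rose and 20 fell. Of all genes, 2769 rose and 6519 fell by that scaling, against 4406 and 4734 with TMM factors.

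**Figure D5:**
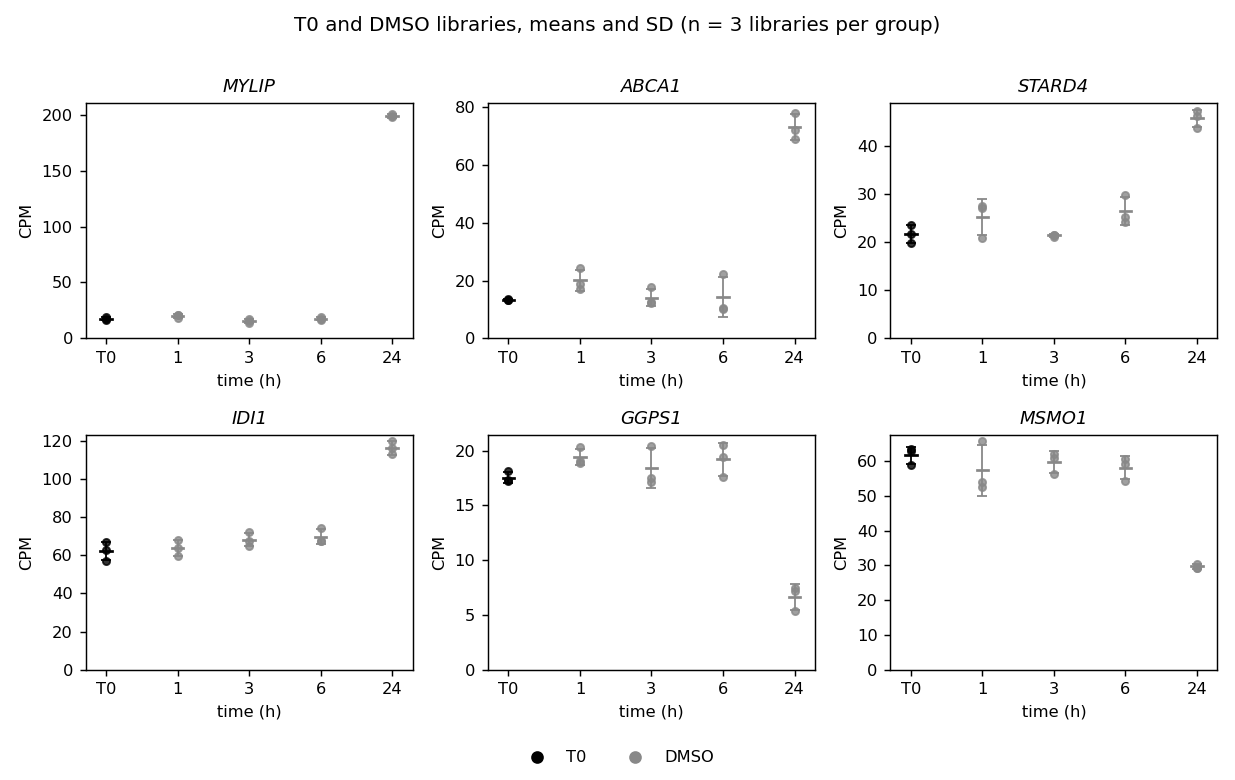
Level (CPM, linear axes from 0) of 6 lipid genes in the T0 and DMSO libraries against time; points are libraries, short lines are means and bars are SD (n = 3). MYLIP and ABCA1 are at 24.3 CPM or less in every library up to 6 h and are at 198 to 201 and 69.1 to 77.9 CPM at 24 h, while GGPS1 and MSMO1 are lower at 24 h.

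MYLIP and ABCA1 showed the largest rises of the 35 genes at 24 h of DMSO. MYLIP stood at 16.2, 19.1 and 17.3 CPM at T0 and at 201, 199 and 198 at 24 h, 11.3-fold higher (log2 change 3.5, SE 0.09, adjusted p = 2.4e-42). ABCA1 stood at 13.3, 13.4 and 13.6 CPM at T0 and at 72.2, 69.1 and 77.9 at 24 h, 5.43-fold higher (2.44, SE 0.13, adjusted p = 3.1e-25). ABCG1 rose by 0.80 (adjusted p = 7.2e-04), from 4.38, 6.06 and 3.35 CPM to 10.5, 6.85 and 7.51. NR1H2 fell by 0.19 (0.41 by library totals), a call lost without T0 replicate 3 (adjusted p = 0.089), without DMSO replicate 1 (0.15), with no filter (0.051) and when only the groups compared were fitted (0.057).

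Both SREBP genes rose at 24 h and INSIG1 fell. SREBF2 stood at 215, 231 and 190.0 CPM at T0 and at 360.0, 363 and 355 at 24 h (log2 change 0.76, SE 0.06, adjusted p = 1.5e-18). SREBF1 stood at 38.1, 39.7 and 39.8 CPM at T0 and at 66.1, 61.5 and 68.7 at 24 h (0.74, SE 0.08, adjusted p = 7.2e-12). INSIG1 stood at 307, 352 and 304 CPM at T0 and at 223, 235 and 230.0 at 24 h (-0.49, SE 0.06, adjusted p = 1.5e-09). STARD4 rose by 1.07 (SE 0.10, adjusted p = 2.4e-15), from 23.5, 21.8 and 19.9 CPM to 46.2, 47.3 and 43.8. None of these 4 pairs of groups overlapped.

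Synthesis genes moved both ways within each branch at 24 h. In the mevalonate branch IDI1 rose by 0.90 (adjusted p = 9.7e-19) while GGPS1 fell by 1.38 (adjusted p = 1.0e-12), from 18.1, 17.3 and 17.2 CPM to 7.20, 7.49 and 5.32. MVK, PMVK and MVD also passed with changes of -0.42, -0.42 and -0.39, and of -0.64, -0.64 and -0.61 by library totals. For PMVK and MVD the T0 replicate 3 library was high (128 against 78 and 89.5 CPM, and 38.4 against 19.3 and 25.3): without it PMVK changed by -0.21 (adjusted p = 0.015) and MVD by -0.12 (0.39), and without T0 replicate 1 MVD changed by -0.60. MVD also missed the threshold when only the groups compared were fitted (0.058). MVK lost its call without DMSO replicate 2 (0.11).

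In the sterol branch HSD17B7 fell by 1.10 (adjusted p = 1.1e-10), MSMO1 by 1.05 (1.6e-17), SQLE by 0.57 (3.3e-13) and FDFT1 by 0.27 (2.7e-04), while CYP51A1 rose by 0.58 (0.0013) and EBP by 0.32 (2.2e-05). SQLE stood at 207, 255 and 246 CPM at T0 and at 151, 163 and 161 at 24 h. MSMO1 stood at 58.7, 63.4 and 62.7 CPM at T0 and at 29.3, 29.2 and 30.5 at 24 h, less than any T0 library. By library totals the changes were -0.50 for FDFT1, 0.36 for CYP51A1 (adjusted p = 0.048) and 0.10 for EBP, which did not pass (adjusted p = 0.18).

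All 7 fatty acid genes tested passed at 24 h of DMSO, ACLY with a direction that turned with the scaling. FASN rose by 0.58 (adjusted p = 2.0e-10), and by 0.36 by library totals. ELOVL6 fell by 0.63 (adjusted p = 5.3e-11), FADS2 by 0.53, SCD by 0.37 and FADS1 by 0.22; by library totals SCD fell by 0.59 and FADS1 by 0.44. ACSS2 changed by -0.93, from 2.87, 2.37 and 2.17 CPM to 1.63, 1.42 and 0.782, a call lost without T0 replicate 1 (adjusted p = 0.078), without DMSO replicate 3 (0.097) and with no filter (0.059). ACLY changed by 0.18 with TMM factors and by -0.04 by library totals (adjusted p = 0.48), and its call was also lost without T0 replicate 3 (change 0.08, adjusted p = 0.13) and when only the groups compared were fitted (0.087), so no direction is given for it.

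Related lipid genes outside the 36 were described from 6 lists. Their counts stand beside the shares of all genes that rose and fell in the same comparisons: 9.83% and 10.5% at 6 h of GSK-J4, 15.2% and 16.8% at 24 h of GSK-J4, 6.59% and 4.16% at 3 h of ZnSO4, 4.81% and 4.51% at 6 h, 3.98% and 5.58% at 24 h, and 30.5% and 32.7% at 24 h of DMSO against T0. Of 14 genes of SREBP processing and sterol-sensing turnover, 5 rose and 4 fell at 24 h of GSK-J4 (all genes 15.2% and 16.8%), 2 rose and 1 fell at 6 h (9.83% and 10.5%), and 0 rose and 4 fell at 24 h of ZnSO4 (3.98% and 5.58%). MBTPS1, the site-1 protease that makes the first cut in SREBPs, rose by 0.47 at 24 h of GSK-J4 (177 ± 3.85 against 127 ± 8.87 CPM, SD, n = 3, adjusted p = 4.2e-09) and fell by 0.21 with ZnSO4 (adjusted p = 0.027). SEC24A, a coat protein of vesicles leaving the endoplasmic reticulum, rose by 0.36 with GSK-J4 (adjusted p = 1.4e-04). With DMSO at 24 h against T0 6 of the 14 rose and 6 fell; RNF139, a sterol-sensing ubiquitin ligase, rose by 2.06 and INSIG2, the INSIG1 paralogue, fell by 2.20.

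Of 11 tested genes of lipid trafficking and storage, 4 rose and 2 fell at 6 h of GSK-J4 (all genes 9.83% and 10.5%) and 3 rose and 2 fell at 24 h (15.2% and 16.8%). TMEM97, an endoplasmic reticulum protein that binds the lysosomal cholesterol exporter NPC1, fell by 0.63 at 6 h (66.6 ± 4.14 against 103 ± 8.99 CPM, SD, n = 3, adjusted p = 4.3e-10), while NPC1 rose by 0.28 (adjusted p = 0.0026). With ZnSO4 TMEM97 rose by 0.41 at 3 h (adjusted p = 4.8e-06) and fell by 0.28 at 6 h (0.0054); the counts were 2 rising and 0 falling at 3 h, 1 and 1 at 6 h, and 0 and 0 at 24 h. With DMSO at 24 h 5 rose and 4 fell.

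Among 14 genes of isoprenoid use and prenylation, 0 rose and 4 fell at 6 h of GSK-J4 (all genes 9.83% and 10.5%). At 24 h 2 rose and 2 fell, near the shares of all genes (15.2% and 16.8%), with PDSS1, which builds the coenzyme Q tail, falling by 0.56. With ZnSO4 0 rose and 1, 3 and 1 fell at 3, 6 and 24 h. Among 26 genes of acyl-CoA supply, elongation and glycerolipids, 2 rose and 6 fell at 6 h of GSK-J4 (all genes 9.83% and 10.5%) and 2 rose and 9 fell at 24 h (15.2% and 16.8%). ME1, a malic enzyme that makes NADPH for lipid synthesis, rose by 0.40 at 6 h and 0.59 at 24 h of GSK-J4, and by 0.37, 0.59 and 0.54 at 3, 6 and 24 h of ZnSO4 (adjusted p of at most 5.3e-05). With ZnSO4 3 rose and 1 fell at 3 h, 3 rose and 1 fell at 6 h, and 2 rose and 0 fell at 24 h. With DMSO at 24 h 5 rose and 6 fell in each of these lists.

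Of 17 genes of fatty acid oxidation, 1 rose and 1 fell at 6 h of GSK-J4 (all genes 9.83% and 10.5%) and 2 rose and 4 fell at 24 h (15.2% and 16.8%). CPT1A, which admits fatty acids to mitochondria, rose by 0.33 and 0.34 at these times (adjusted p = 6.2e-04 and 2.6e-04), while HADHA, of the mitochondrial oxidation complex, fell by 0.24 at 24 h. With ZnSO4 3 rose and 1 fell at 6 h and 0 rose and 3 fell at 24 h, and with DMSO at 24 h 3 rose and 6 fell. Of 7 tested LXR partners and targets, 2 rose at 24 h of GSK-J4 (15.2% of all genes), 2 at 6 h of ZnSO4 (4.81%) and 1 at 24 h of ZnSO4 (3.98%), with 0 falling. RXRA, the LXR dimer partner, rose by 0.37 at 6 h and 0.62 at 24 h of ZnSO4 (adjusted p = 0.016 and 5.4e-04); with DMSO at 24 h it fell by 0.91, 1 of 3 falls beside 1 rise in that list.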

How the data were processed

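RNA-seq of total RNA (Trizol extraction, NEBNext Ultra libraries, per the labels' protocols) was deposited as 1 table of raw read counts per Ensembl gene for the 39 libraries. Reads were aligned with HISAT2 2.1.0 to hg19, per the submitters' processing notes; the counting tool, annotation and strand setting were not given in the sources used here. Groups came from the labels; replicate numbers follow accession order only. Genes were filtered with edgeR's filterByExpr (minimum count 10), scaled by TMM factors and tested with edgeR 4.0.16's quasi-likelihood F-test in R 4.3.3, with all 13 groups in 1 fit (26 residual degrees of freedom, 34.7 prior) and Benjamini-Hochberg adjustment over all 14460 genes; calls are at an adjusted p under 0.05. The common biological coefficient of variation was 4.8%. All adjusted p-values in the text are from this test unless DESeq2 is named. Standard errors were the log2 fold change over the square root of F. A fit of a single pair of groups was tried on counts simulated from the 6 h libraries, with known changes put in. The fit of all 13 groups and the interaction contrasts were not simulated. Alternatives were RLE size factors, library totals alone, no filter on low counts, DESeq2 1.42.0, fits of only the groups compared, and leaving out each library in turn.

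The members and gene lists were chosen with earlier results of these data known. Library values are given for the member of each branch with the smallest p in each comparison with DMSO. They are also given for INSIG1, SREBF1, SREBF2, ABCA1 and SQLE, and for members whose effects differed in time. Some other members, such as GGPS1 and ACLY, have library values that this rule did not call for. Other lists are given by counts and up to 3 called genes each. Promoter windows are RefSeq's on GRCh38.p14, a different build from the counts, and were used for letters only. Intervals cover counting and library spread as the fit models them.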

Additional observations from a re-analysis of the deposited data

Results flagged for a closer look

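By interaction contrasts (edgeR quasi-likelihood F-test, adjusted p under 0.05), the effects of the compounds on 8 lipid genes differed between times. From 3 to 6 h the effect of GSK-J4 on the log2 scale moved by -0.45 for HMGCS1, -0.42 for FASN, -0.35 for SCD, -0.34 for SQLE and 0.41 for SREBF1. From 6 to 24 h it moved by 0.56 for HMGCS1, 0.47 for INSIG1, -0.53 for SREBF1, -0.49 for MYLIP and -0.47 for FASN. The 6 h libraries enter both of these contrasts, so the 2 sets of values share them. Each value also takes in any change of DMSO between its 2 times. The effect of ZnSO4 moved from 3 to 6 h by 0.56 for MSMO1.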

How the results depend on the processing

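Of 115 calls of lipid genes over the 20 comparisons, 67 held in every alternative run. The number called differed by more than 1.5 times from the count reported in these cases, and the cause was not tested. For GSK-J4 against DMSO at 3 h the count was 1, but 0 with RLE size factors, 2 by library totals and 3 when only the groups compared were fitted; for ZnSO4 at 3 h it was 5, and 8 in that last fit. By library totals GSK-J4 against ZnSO4 gave 12 in place of 6 at 3 h and 9 in place of 14 at 24 h. With no filter DMSO against T0 gave 1 in place of 0 at 1 h and 1 at 3 h, the latter also by DESeq2, and the ZnSO4 effect from 3 to 6 h gave 2 in place of 1. The 1 reversal was ACLY at 24 h of DMSO against T0, -0.04 by library totals. Leaving out 1 library gave 0 to 1 calls for GSK-J4 at 3 h, 9 to 15 at 6 h, 2 to 5 for ZnSO4 at 3 h, 2 to 6 at 6 h, 3 to 5 and 8 to 12 for GSK-J4 against ZnSO4 at 3 and 24 h, 0 to 1, 0 to 1 and 0 to 3 for DMSO against T0 at 1, 3 and 6 h, and 1 to 2 for the ZnSO4 effect from 3 to 6 h (2 without DMSO 6 h replicate 1). No paired analysis was possible because the replicate numbers follow accession order and the labels give none. Depth limits ACSS2, ABCG1, CYP51A1 and TM7SF2 most.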
